A study of Mus musculus with 292 samples.

Results

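The brains set against each other here were those of F2 mice with high and with low RNA of Tsc22d3, a gene that glucocorticoid hormones switch on and that encodes the protein GILZ. Arrays were ranked by the log10 ratio of the only Tsc22d3 probe, separately among the 151 mice numbered 51 to 212 and the 141 mice numbered 213 to 362, called the lower-numbered and the higher-numbered block below. The highest 25% of both blocks were pooled and set against the pooled lowest 25%. This gave 72 high Tsc22d3 brains (37 and 35 from the 2 blocks) and 72 low Tsc22d3 brains (37 and 35) of 292 in all. The 148 brains in between, set apart by the same Tsc22d3 values, were left out of that contrast and are used further on. Because measured Tsc22d3 chose the groups, its own difference is a description and was not tested.

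High and low brains shared every labelled condition except mouse number. All came from F2 animals of a C57BL/6J and C3H/HeJ intercross, females and males together, and each brain RNA was hybridised once, on a 2-colour array, against a pool of equal portions of every sample. Until 8 weeks of age the animals received chow of 4% fat, and for the next 12 weeks a Western diet of 42% fat and 0.15% cholesterol, and brains were taken at 20 weeks following 12 h without food. No treatment, hormone level or time of day went with any sample in the sources used here, so the groups rest on RNA alone. In the lower-numbered block all low brains came from the earlier mouse numbers, and all but a few high brains from later ones. In the higher-numbered block the groups were more mixed. What else changed along the mouse numbers was not labelled, and its part in the differences was not tested. The labels state neither the direction nor the log base of the ratio. Mouse over pool is likely from Eif2s3y, a Y-linked translation factor gene, read in base 10. Over the lower-numbered block (n = 151) its mean linear ratio was 0.987 as deposited and 21.8 with the sign turned. Equal portions in the pool should give a value near 1. The higher-numbered block gave 0.58 as deposited, which is further from 1, and 21.5 with the sign turned (n = 141), and all 292 arrays gave 0.79 and 21.7. If the ratio ran the other way, all directions below would be opposite. Base 10 was assumed and no other base was compared, so every fold difference below rests on it.

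Glucocorticoids, in mice mainly corticosterone, cross into the brain and bind the glucocorticoid receptor (Nr3c1) and the mineralocorticoid receptor. The receptor leaves a complex of chaperones, enters the nucleus and, as a pair, binds a short DNA element whose arms are near mirror images. Genes switched on in this way include GILZ, kinases such as Sgk1, regulators such as Per1 and Nfkbia, the co-chaperone Fkbp5, which in turn dampens the receptor, and enzymes that shift cells from glucose towards fat. In the brain such responses follow stress, fasting and the daily hormone peak, and they are known from neurons, glia and the cells of blood vessels alike.

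The start regions of 3 of the 15 genes furthest up between the groups hold a sequence of the receptor's binding pattern, and these are shown because they are the only such matches among those genes. The pattern searched was GNACANNNTGTNC, an arm, 3 free bases and the reverse complement of the arm, which is its own reverse complement and so reads alike on both strands. Each window runs from 250 bases before to 50 bases after a RefSeq transcript start on GRCm38.p6, and capitals mark the match. Map3k6 lies at chr4:133240568-133240867 (+ strand, match starting 181 bases before the transcript start), Slc10a6 at chr5:103629354-103629653 (- strand, 163 bases before) and Sgk1 at chr10:21993640-21993939 (+ strand, 188 bases before, in 1 of its 6 windows).
Map3k6: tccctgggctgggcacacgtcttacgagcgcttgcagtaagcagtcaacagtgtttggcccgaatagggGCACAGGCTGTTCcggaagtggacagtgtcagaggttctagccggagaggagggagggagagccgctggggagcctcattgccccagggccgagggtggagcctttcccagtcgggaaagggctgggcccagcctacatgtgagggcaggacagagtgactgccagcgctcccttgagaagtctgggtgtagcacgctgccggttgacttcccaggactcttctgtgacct
Slc10a6: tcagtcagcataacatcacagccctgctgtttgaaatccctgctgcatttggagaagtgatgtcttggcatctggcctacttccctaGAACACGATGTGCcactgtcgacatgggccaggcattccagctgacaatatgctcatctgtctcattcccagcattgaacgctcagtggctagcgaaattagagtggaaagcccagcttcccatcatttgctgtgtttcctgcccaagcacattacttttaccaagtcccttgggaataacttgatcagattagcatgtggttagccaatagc
Sgk1: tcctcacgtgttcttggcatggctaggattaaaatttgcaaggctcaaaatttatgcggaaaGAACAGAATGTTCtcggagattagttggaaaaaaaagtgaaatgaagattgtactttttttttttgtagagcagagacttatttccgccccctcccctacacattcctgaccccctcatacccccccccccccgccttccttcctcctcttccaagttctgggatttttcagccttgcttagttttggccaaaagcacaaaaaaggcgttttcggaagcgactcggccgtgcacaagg
Of the 15 genes, 10 had a window in the RefSeq table. The pattern was in 145 of 27025 genes with a window (0.537%), or 156 of 32851 windows (0.475%). Of the 62 genes with a window among all 81 that were higher by at least 1.2-fold, 4 held it, the fourth being Kcna5, a potassium channel gene named here for its match alone. None of the 11 genes with a window among the 15 furthest down held it, nor any of the 3 windows of Tsc22d3. A match is only a run of letters in this window, and its absence says nothing about binding elsewhere.

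Tsc22d3 had log10 ratios from 0.0649 to 0.189 in the high and from -0.233 to -0.081 in the low brains of the lower-numbered block, with medians of 0.0916 and -0.116. In the higher-numbered block the high brains ran from 0.132 to 0.291 and the low brains from -0.0955 to 0.0526, with medians of 0.16 and 0.0237. The groups cannot overlap within a block, by construction, but the whole higher-numbered block sat further up: its median over all brains was 0.0926, against 0.00231 in the lower-numbered block. The mean difference between high and low brains was 0.231 (1.70-fold) in the lower-numbered and 0.163 (1.46-fold) in the higher-numbered block, so the contrast is narrower in the higher-numbered one. At the edges, the last brain inside the high group had 0.0649 and the next one outside 0.0636 in the lower-numbered block, and 0.132 and 0.131 in the higher-numbered block. On the low side the edges were -0.081 and -0.0791, and 0.0526 and 0.0539.

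**Figure D1:**
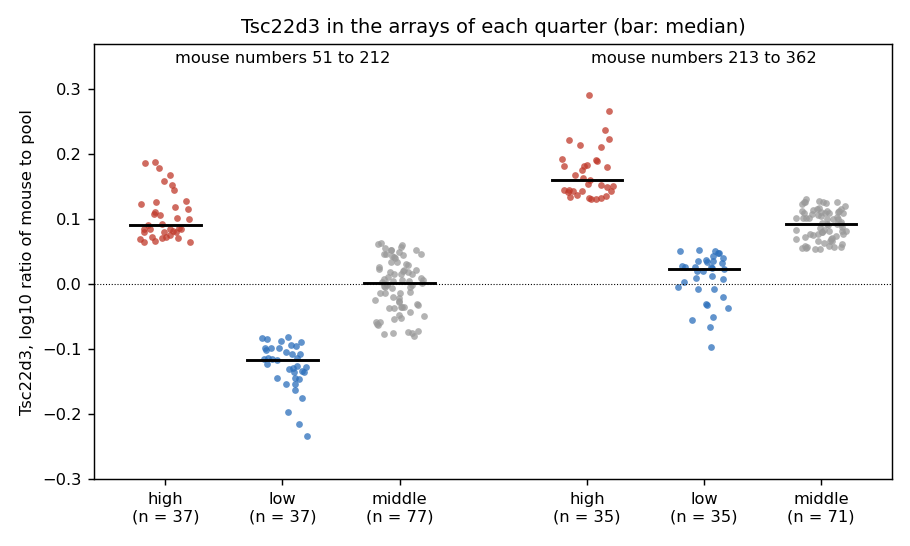
Tsc22d3 in every brain: the vertical axis is the log10 ratio of mouse to pool, 1 point per array, for the high, low and middle brains of each block, with a bar at the median. The middle brains of the higher-numbered block (median 0.0926) lie near the level of the high brains of the lower-numbered block.

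Apart from Tsc22d3 itself, some properties of the arrays differed between the groups. The first principal component of all probes with each block centred, which held 12.1% of the variance, averaged 0.484 in the high and -0.833 in the low brains of the lower-numbered block, and -0.116 and 0.188 in those of the higher-numbered block (in units of its own SD). The part of this component in the results was not tested. Fits with a covariate used components computed from the high and low brains alone. With 1 such component over both blocks, computed without centring the blocks, 2200 probes were higher and 2721 lower. Uncentred, it can carry the block difference that is already in the fit, unlike the component described above. The fit with 1 component per block is given at the end. The spread of log10 ratios within an array (SD) was 0.0683 at the median of the high and 0.0658 at that of the low brains, but it reached 0.102 in high and 0.151 in low brains, and the 15 arrays of largest spread included 3 high and 7 low brains. Leaving these out ended the calls of Slc1a3 and Serpina6 among the genes named here. Array medians lay between -0.00726 and 0.011 in high and between -0.00622 and 0.0108 in low brains. Eif2s3y lay under -0.5 in 17 of 37 high and 16 of 37 low brains of the lower-numbered block and in 16 of 35 high and 13 of 35 low brains of the higher-numbered block, so that the Y-linked signal was spread much alike over the groups. Within the lower-numbered block, 17 high and 17 low brains carried one spelling of the description text and 20 and 20 the other. These sets followed the Y-linked signal: under the first spelling 17 of 17 high and 16 of 17 low brains lay under -0.5, and under the second spelling 0 of 20 and 0 of 20. Eif2s3y (-0.0758, adjusted p = 0.767) and Kdm5d, a Y-linked demethylase gene (-0.104, adjusted p = 0.523), did not pass between the groups.

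In the fit over both blocks, 1084 of 11639 named genes (9.31%) were higher and 1222 (10.5%) lower in high Tsc22d3 brains at an adjusted p under 0.05. Both shares are the background for every count of list members below. In the text below, rose and fell refer to this test (limma, group and block as terms, Benjamini-Hochberg adjustment over 23548 probes). Over all 23548 probes, 1961 (8.33%) were higher and 2438 (10.4%) lower, and at 1.2-fold or more 122 (0.518%) and 81 (0.344%). Most of these differences were small. At 1.2-fold or more, 81 named genes (0.696%) were higher and 52 (0.447%) lower, so a gene of that size was rare in either direction. Each brain is its own animal with 1 array, and the spread between brains includes measurement error.

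The genes furthest up mixed known targets of glucocorticoids with genes on none of the lists used here, such as Itgad, Slc10a6 and Smim3. Itgad, the gene of an integrin subunit of leukocytes, had the largest difference of any named gene. Its log10 ratio was -0.102 at the lowest, 0.191 at the median and 0.392 at the highest in high brains, against -0.545, -0.225 and 0.241 in low brains. All 72 high brains lay above the low median, and 46 low brains lay below every high brain, though the groups overlapped. Counts of this kind, here and below, pool both blocks without adjustment for block. Nearly all low brains of the higher-numbered block also lay above this Itgad low median, so such counts partly reflect the levels of the blocks. The difference was 0.375 ± 0.0241 (SE, n = 72 and 72), or 2.37-fold (limma adjusted p = 9.91e-29). Plin4, which coats lipid droplets, had -0.0645, 0.175 and 0.43 in high brains and -0.504, -0.13 and 0.364 in low brains, a 2.00-fold difference (adjusted p = 1.32e-22). Here 46 low brains again lay below every high brain, but only 3 high brains lay above every low brain.

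The kinase gene Sgk1 and the MAP kinase cascade gene Map3k6 followed. Sgk1 had log10 ratios of -0.136, 0.144 and 0.295 in high brains and -0.409, -0.185 and 0.177 in low brains (lowest, median, highest). Map3k6 had -0.135, 0.125 and 0.32 in high brains and -0.411, -0.161 and 0.114 in low brains. Every high brain exceeded the low median for both genes, and 40 high brains had more Map3k6 than any low brain. The fold differences were 1.93 for Sgk1 (adjusted p = 6.83e-26) and 1.82 for Map3k6 (adjusted p = 9.31e-26). Slc10a6, which encodes a transporter of sulfated steroids, stood between them at 1.85-fold (0.268 ± 0.021, adjusted p = 2.42e-22).

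Cdkn1a, the gene of the cell cycle inhibitor p21, had -0.17, 0.102 and 0.315 in high brains and -0.382, -0.128 and 0.157 in low brains. All but 1 of the high brains exceeded the low median, and the difference was 1.68-fold (adjusted p = 1.12e-22). Cdkn1a and Map3k6 were the genes given with Tsc22d3 as marks of the state. These marks were chosen with earlier results of the same arrays known, so their rise is no independent evidence. Of the other genes among the 15 furthest up, Cebpd, a transcription factor of acute responses, was 1.71-fold higher by its more variable probe, while its other probe did not pass (-0.0109, adjusted p = 0.548). The proapoptotic gene Pmaip1 rose 1.62-fold, Pdk4, which blocks the entry of pyruvate into the citric acid cycle, 1.59-fold and Nfkbia, the inhibitor of NF-kB, 1.59-fold. Lao1, an amino acid oxidase gene, the stress gene Trp53inp1 and Ch25h, which makes an oxysterol, rose by 1.56, 1.56 and 1.55-fold.

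Smim3, the gene of a small membrane protein, separated the groups most cleanly. High brains had log10 ratios of 0.00126, 0.108 and 0.244 and low brains -0.218, -0.0823 and 0.0977. Here 63 low brains lay below every high brain and 44 high brains above every low brain. The difference of 0.185 ± 0.00907 (1.53-fold) had the smallest adjusted p of the genes named here (5.88e-40). Fkbp5, whose product holds the receptor in a state of low affinity for the hormone, had -0.0479, 0.1 and 0.287 in high brains and -0.216, -0.0725 and 0.149 in low brains. All high brains were above the low median, and the difference was 1.51-fold (adjusted p = 7.11e-27).

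**Figure D2:**
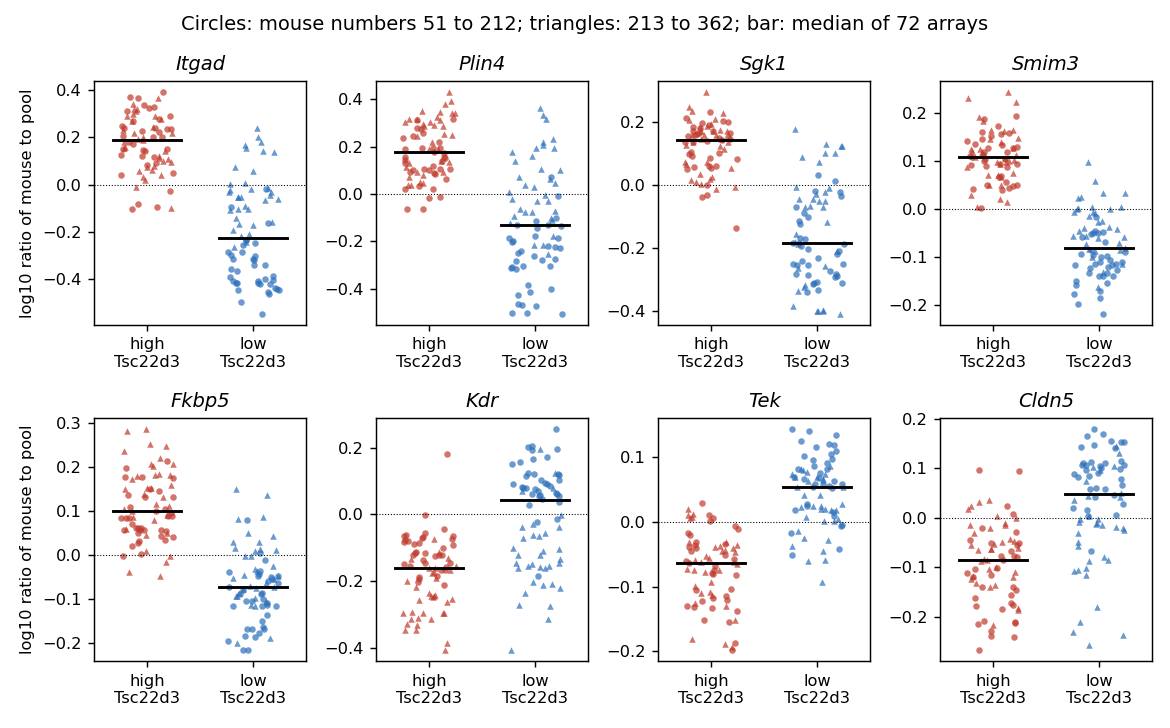
Log10 ratio of mouse to pool (vertical axes) for 8 genes in the 72 high (left, red) and 72 low (right, blue) Tsc22d3 brains, 1 point per array, circles for mouse numbers 51 to 212, triangles for 213 to 362, bar at the median. Itgad, Plin4, Sgk1, Smim3 and Fkbp5 sit higher in high brains, and the vessel genes Kdr, Tek and Cldn5 sit lower, with overlap in every panel.

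Over 3 lists of glucocorticoid-responsive genes, 26 of 47 measured genes rose, 3 fell and 18 did not pass, with 15 and 1 at 1.2-fold or more. Of all named genes 9.31% rose and 10.5% fell. The median difference was 0.0276 on the log10 scale, against 0.00014 over all named genes. Averaged over these 47 genes, high brains ran from -0.0268 to 0.0718 (median 0.0265) and low brains from -0.0911 to 0.0259 (median -0.0441). These lists were drawn up with earlier results of the same arrays known, so the count is no independent evidence of a direction.

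Among the transcription regulators, 6 of 13 rose and none fell at an adjusted p under 0.05. Besides Cebpd and Nfkbia these were Cebpb, a relative of Cebpd (1.25-fold, adjusted p = 3.19e-08), the clock genes Per1 (1.08-fold, adjusted p = 0.0018) and Dbp (1.06-fold, adjusted p = 0.00581), and Klf9, a Kruppel-like factor of neurons (1.07-fold, adjusted p = 0.00534). Klf15, an inducer of amino acid breakdown, differed by 0.00964 (adjusted p = 0.0872) and Zbtb16, a strong target in many cell types, by -0.00099 (adjusted p = 0.886). In the higher-numbered block Per1 (-0.0132), Dbp (-0.000913) and Klf9 (0.00204) did not pass. Klf13 was lower by 0.0633 on the log10 scale in high brains of the lower-numbered block (adjusted p = 0.00372) and higher by 0.0852 in those of the higher-numbered block (adjusted p = 0.000832), with 0.0089 over both.

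Signalling genes gave the clearest of the 3 counts, 12 of 18 rising and 1 falling. Below Sgk1, Map3k6, Cdkn1a and Fkbp5 came Rasd1, a dexamethasone-induced Ras relative (1.44-fold, adjusted p = 0.000124), and the growth arrest gene Gadd45g (1.26-fold, adjusted p = 5.59e-14). Mertk, a receptor kinase for the uptake of dead cells, rose 1.17-fold, the cell cycle inhibitor Cdkn1c 1.15-fold, the insulin receptor substrate Irs2 1.12-fold, Gadd45a 1.09-fold, the survival gene Bcl2l1 1.05-fold and the GTPase gene Rhob 1.04-fold. Both probes of Irs2 passed. In the higher-numbered block alone Rasd1 (0.0716), Irs2 (0.0253), Bcl2l1 (0.0125) and Rhob (0.00708) did not pass, while Gadd45g, Mertk and Gadd45a did. Cdkn1c differed by 0.128 in the lower-numbered and by -0.00664 in the higher-numbered block (adjusted p = 0.838 there), and it did not pass with the first principal component of each block as a covariate (0.0151). Rgs2, a brake on G protein signals, was the gene that fell (-0.038, adjusted p = 0.00849), and the phosphatase gene Dusp1, often used as a quick glucocorticoid target, did not pass (0.0232, adjusted p = 0.449).

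Of 16 genes of metabolism and barriers, 8 rose and 2 fell. Fmo2, a flavin monooxygenase, rose 1.38-fold (adjusted p = 1.76e-16), the glucose transporter of the blood-brain barrier Slc2a1 1.35-fold (adjusted p = 3.76e-22), the lipase inhibitor Angptl4 1.35-fold (adjusted p = 3.25e-12) and the sulfotransferase Sult1a1 1.34-fold (adjusted p = 1.24e-14). Azin1 and the lipid phosphatase Lpin1 were 1.11-fold and 1.08-fold higher. Acot1, a thioesterase for fatty acyl-CoA, fell by 0.0463 (adjusted p = 5.87e-08), and the efflux pump Abcb1a fell by 0.12 on the log10 scale. The liver enzyme gene Tat (0.00363) and the astrocyte enzyme gene Glul (0.016) did not pass.

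Genes of the receptor and of hormone handling differed by smaller amounts, apart from Fkbp5. Of 13 measured, Fkbp5 and Serpina6, the gene of the plasma carrier of corticosteroids, rose and 4 fell. Serpina6 had 0.0436 in the lower-numbered and -0.00104 in the higher-numbered block. Nr3c1, the glucocorticoid receptor itself, had log10 ratios of -0.225, -0.00601 and 0.149 in high brains and -0.113, 0.0306 and 0.218 in low brains, and 51 of the 72 high brains lay below the low median. That is a 1.12-fold lower level (adjusted p = 0.0038). The difference was -0.112 in the lower-numbered and 0.0186 in the higher-numbered block (interaction with block, adjusted p = 5.94e-06), and with the first principal component of each block as a covariate it was -0.00166 and did not pass. The co-chaperones Fkbp4 (-0.0321), Stip1 (-0.0397, by 1 of 2 probes) and Bag1 (-0.0203) also fell, with values of -0.00719, 0.0181 and 0.0049 in the higher-numbered block. Hsd11b1, which regenerates active hormone, differed by 0.022 (adjusted p = 0.114) and the chaperone Hsp90aa1 by -0.0048 (adjusted p = 0.85). Nr3c1, Stip1 and Bag1 followed the array-wide component with r of -0.823, -0.51 and -0.509 over all 292 arrays with blocks centred.

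Genes that glucocorticoids are known to hold down gave no common direction. Of 15 measured, 3 fell and 2 rose, against 10.5% and 9.31% of all named genes. The interferon-induced chemokine Cxcl10 fell 1.25-fold (adjusted p = 7.38e-06) and the neurotrophin Bdnf 1.14-fold (adjusted p = 2.82e-05), whereas Il6, a cytokine gene, rose 1.11-fold (adjusted p = 0.000188). The median over the list was -0.00824. Of the other members of the family of Tsc22d3, Tsc22d1 was 1.14-fold higher by 1 of its 2 probes (adjusted p = 0.00423) and Tsc22d4 did not pass (-0.012, adjusted p = 0.264).

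The genes whose pattern across brains was most like that of Tsc22d3 were chosen by Pearson r over all 292 arrays, each block centred on its mean. Smim3 came first with r = 0.827 (Spearman's rank correlation 0.836), and r was 0.872 and 0.812 in the 2 spelling sets of the lower-numbered block and 0.812 in the higher-numbered block. Rhou had r = 0.747, Itgad 0.732, Aff1, a gene of a transcription elongation complex, 0.713, Cdkn1a 0.712, Slc2a1 0.71, Trp53inp1 0.705, the adenosine deaminase gene Ada 0.7, Sgk1 0.693 and the stress sensor gene Sesn1 0.691. Without the 2 arrays furthest from the median of Tsc22d3 these values lay between 0.679 and 0.829. For Aff1 only 1 of 2 probes showed it, the other differing by 0.00318 (adjusted p = 0.736). All points share their arrays, and with them any array-wide component, with which r was 0.0575 for Smim3, 0.49 for Slc2a1 and 0.0879 for Sgk1.

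Several targets of p53 were among the higher genes, beside 9.31% of all named genes that rose and 10.5% that fell. On the p53 list 6 of 14 measured genes rose and none fell, 4 of them by at least 1.2-fold, namely Cdkn1a, Pmaip1, Trp53inp1 and Sesn1. Cdkn1a is also on the glucocorticoid signalling list and was given as a mark of the state. The p53 list too was drawn up with earlier results of the same arrays known, so its count is no independent evidence. Sesn1 was 1.21-fold (adjusted p = 5.29e-22) and Sesn2, a second sestrin, 1.11-fold higher (adjusted p = 0.000124). The median of the list was only 0.0112. Of 17 genes of FoxO factors, insulin and fasting, which share Irs2, Sesn1 and Sesn2 with the lists above, 6 rose and 1 fell.

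The genes furthest down included several of blood vessels. Kdr, the main receptor for vascular endothelial growth factor, had log10 ratios of -0.406, -0.16 and 0.18 in high brains and -0.406, 0.0419 and 0.256 in low brains. All but 1 of the high brains lay below the low median, and the level was 1.46-fold lower (adjusted p = 5.99e-18). Most low brains of the higher-numbered block lay below that Kdr median as well. Tek, the angiopoietin receptor, had -0.198, -0.0631 and 0.0288 in high brains and -0.0927, 0.0546 and 0.144 in low brains. All 72 high brains lay below the low median, and the level was 1.31-fold lower (adjusted p = 3.25e-23). Cldn5, a tight junction protein of the blood-brain barrier, had -0.268, -0.0855 and 0.0975 in high brains and -0.257, 0.0478 and 0.18 in low brains, 1.32-fold lower (adjusted p = 3.77e-11). The groups overlapped for each, and the difference of Cldn5 was -0.205 in the lower-numbered and -0.0339 in the higher-numbered block (adjusted p = 0.296 there).

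Of 14 endothelial genes measured, 6 fell, all by at least 1.2-fold, and 2 rose, against 10.5% and 9.31% of all named genes. Besides Kdr, Tek and Cldn5, Abcb1a fell 1.32-fold (adjusted p = 3.49e-05). The 2 that rose included Slc2a1, so the list did not move as one, and its median was -0.0267. In these whole-tissue samples fewer cells of a type and less RNA per cell cannot be told apart. Averaged over the list, high brains ran from -0.118 to 0.0901 and low brains from -0.063 to 0.0615. Of 11 genes of pericytes and smooth muscle, 5 fell and none rose, each by less than 1.2-fold. Anpep, a peptidase of pericytes, was 1.17-fold (adjusted p = 1.23e-09), the growth factor receptor Pdgfrb 1.10-fold and the smooth muscle actin Acta2 1.08-fold lower.

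Red cell genes were lower too, within a wide spread. Hbb-b1, an adult beta globin, had -0.623, -0.177 and 0.224 in high brains and -0.5, -0.0446 and 0.302 in low brains, and 55 of 72 high brains lay below the low median. It was 1.33-fold lower (adjusted p = 0.000911) and its near-identical neighbour Hbb-b2, whose signal may not be separable from it, 1.37-fold lower (adjusted p = 0.000408). Of 6 red cell genes 5 fell, with all 6 of the same sign in both blocks. Alas2, the haem synthesis enzyme of red cells, was 1.12-fold lower. None of the 6 passed in the middle brains, where the median of the list was -0.169.

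The other genes furthest down had various functions. Insc, an adaptor of spindle orientation, was 1.51-fold lower (-0.179 ± 0.0151, adjusted p = 3.57e-20) with all high brains below the low median, and the homeobox gene Nkx2-9 was 1.39-fold (-0.143, adjusted p = 8.21e-20) and the chemokine Cxcl12 1.38-fold lower (-0.141, adjusted p = 2.8e-17). Pdia3, a disulfide isomerase of the endoplasmic reticulum, had the largest negative difference (-0.192, adjusted p = 3.21e-06), but it was -0.305 in the lower-numbered and -0.0727 in the higher-numbered block. The same held for the haem oxygenase Hmox1 (-0.285 and -0.0431), the RNA-binding protein gene Zc3h7b (-0.237 and -0.0155), the oxysterol hydroxylase Cyp39a1 (-0.216 and -0.0278) and the lysosomal channel Mcoln1 (-0.231 and -0.00131). The phospholipase gene Pla2g4a (-0.122 over both blocks) and the matrix protease gene Mmp14 (-0.124) completed the 15.

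**Figure D3:**
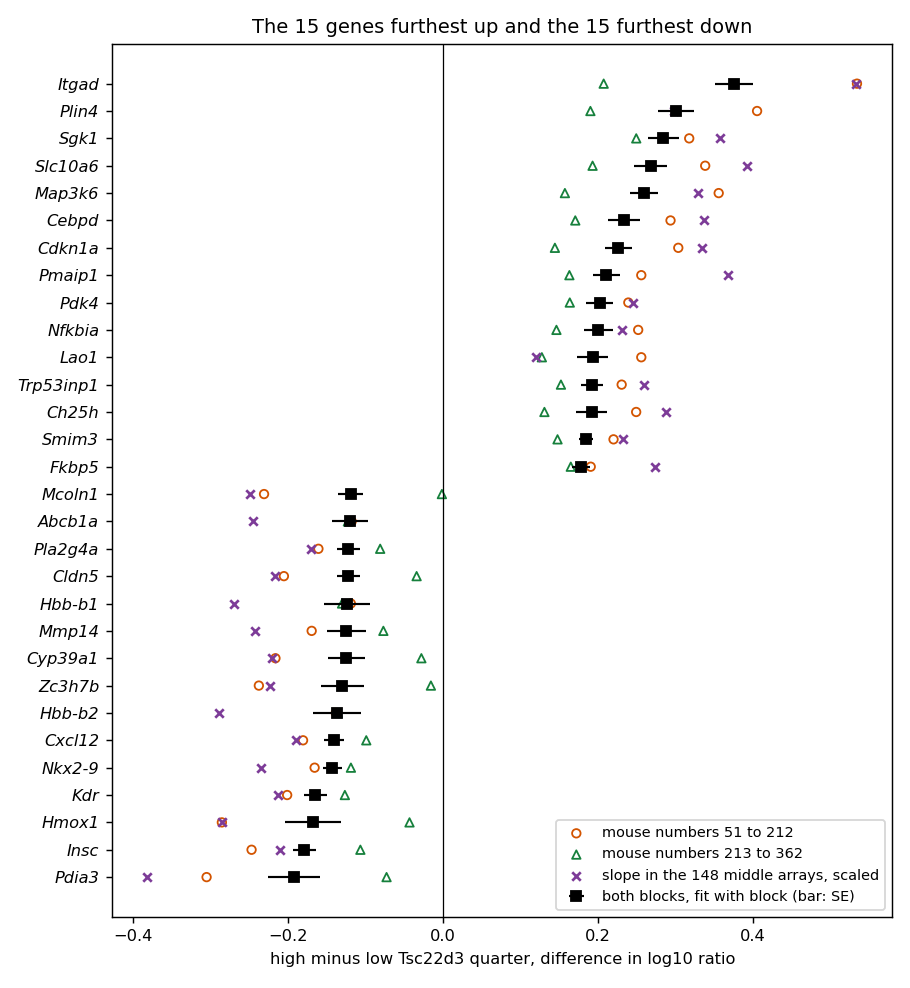
The 15 genes furthest up and the 15 furthest down: difference in log10 ratio, high minus low Tsc22d3 brains (squares, bar 1 SE), the same in each block alone (circles and triangles), and the slope on Tsc22d3 in the 148 middle brains scaled to the difference between the groups (crosses). For all 30 the block values share the sign of the square, by the rule that chose them, and several of the lower genes are near 0 in mouse numbers 213 to 362.

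Clock genes that peak with Dbp rose in greater number than those that peak with Arntl. Of all named genes 9.31% rose and 10.5% fell. Of 11 measured genes that peak with Dbp and the Per genes, 7 rose and none fell, with Per2 at 1.24-fold (adjusted p = 2.48e-05), Bhlhe40 at 1.14-fold and Nr1d2 at 1.14-fold by 1 of 2 probes. The lower-numbered block alone called 6 of these 11 higher and the higher-numbered block 2, with list medians of 0.0321 and 0.00867. Of 6 that peak with Arntl, Arntl itself, the partner of Clock, fell 1.18-fold (adjusted p = 3.74e-10) and Rora rose 1.1-fold. In the higher-numbered block Arntl had -0.0284 (adjusted p = 0.0956), Per2 0.0697 (adjusted p = 0.074) and Nr1d2 0.00338 (adjusted p = 0.912). Per1 (0.0761 and -0.0132 in the lower- and higher-numbered block) and Dbp (0.0505 and -0.000913) differed between the blocks, and their interactions with block passed (adjusted p = 8.1e-07 and 0.00188). Most immediate early genes of neuronal activity did not pass: of 20, Per1 rose and Fos (-0.0282) and Nr4a2 (-0.0326) fell.

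More heat shock and interferon genes fell than rose, beside 10.5% of all named genes that fell and 9.31% that rose. Of 12 heat shock genes 4 fell and none rose, with Hspa8 at -0.0682 (3 further probes of its 11 also passed), Hsph1 at -0.0417 and Ahsa1 at -0.0405. In the higher-numbered block the 3 stood at 0.00184, -0.0124 and -0.00564, and over all arrays Hspa8 and Ahsa1 followed the array-wide component with r of -0.898 and -0.81. Of 14 interferon-induced genes 6 fell and 1 rose, among them Oasl2 (1.19-fold lower, adjusted p = 5.46e-05), Rtp4 (1.13-fold) and Cxcl10. In the middle brains 6 of the 14 passed in the same direction, with a list median of -0.0979, while the higher-numbered block alone gave none in either direction. Adm, a vasodilator peptide gene on the hypoxia list, rose 1.21-fold, and on that list 4 of 12 rose and 1 fell.

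Counts for markers of other cell types stand here beside the 9.31% of all named genes that rose and the 10.5% that fell. Of 14 myelin genes 4 fell and none rose, Aspa, an enzyme of oligodendrocytes, differing by -0.0787 on the log10 scale (adjusted p = 3.48e-11), the lineage factor Sox10 by -0.0567 and the connexin Gjb1 by -0.0204. Of 14 astrocyte genes 3 rose, Slc4a4 (1.16-fold), the connexin Gjb6 (1.12-fold) and the glutamate transporter Slc1a3 (1.09-fold), and the list median was 0.00922. In the higher-numbered block Slc4a4 (0.00629, adjusted p = 0.788) and Slc1a3 (-0.00764, adjusted p = 0.815) did not pass, while Gjb6 did (0.0583, adjusted p = 0.00202). Of 10 microglial genes Csf1r fell (-0.0225) and the others did not pass, with a median of 0.00237. Of 10 leptomeningeal genes 2 fell, among them Crabp2, and of 3 ependymal genes Foxj1 fell. None of 10 choroid plexus, 5 oligodendrocyte precursor, 10 hypothalamic and 8 pituitary genes passed, and the hormone gene Prl differed by 0.193 ± 0.139 (adjusted p = 0.354).

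Among regional markers, the cortical neuron factors Neurod6 and Tbr1 fell, the other 9 of 11 cortical and hippocampal genes not passing. Over all named genes 9.31% rose and 10.5% fell, and several counts in this paragraph lie near that background. Neurod6 had a difference of -0.0831 ± 0.00775 (1.21-fold lower, adjusted p = 2.34e-17), -0.103 and -0.062 in the 2 blocks, and Tbr1 -0.0447. Tbx21 (1.25-fold) and Eomes (1.22-fold), factors of olfactory bulb projection neurons, rose, as 2 of 9 genes of that region. In the higher-numbered block alone neither Tbx21 (0.0546, adjusted p = 0.179) nor Eomes (0.0392, adjusted p = 0.465) passed. Of 10 general neuronal genes the vesicle protein gene Syt1 (-0.107) and the neurofilament gene Nefm (-0.0838) fell and Slc32a1 of inhibitory neurons rose (0.0501). Of 10 thalamic genes 3 rose and 1 fell, of 9 striatal genes 2 fell and of 9 cerebellar genes 1 fell. Of 13 ribosomal protein genes 1 rose and 1 fell, of 12 unfolded protein response genes 1 rose and 2 fell, and of 13 cholesterol synthesis genes 2 rose. These marker differences stood beside those of the glucocorticoid list, and whether unequal tissue contributed to it was not tested.

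**Figure D4:**
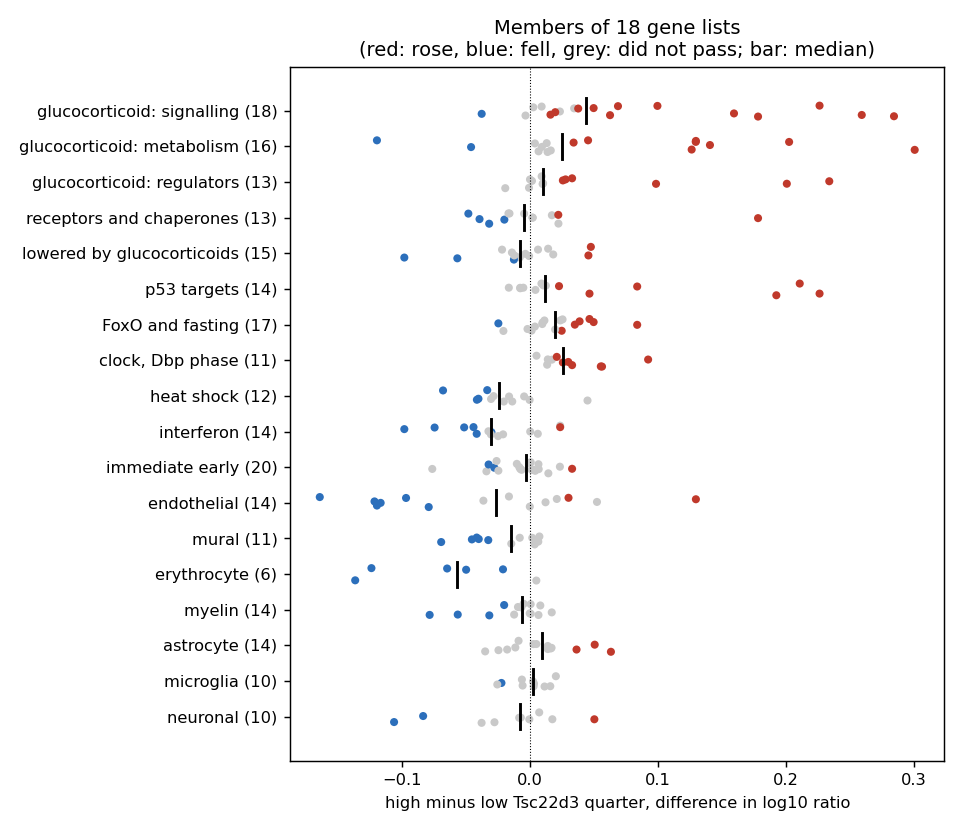
Difference in log10 ratio, high minus low Tsc22d3 brains, for each measured member of 18 gene lists (rows, number measured in brackets), red where it rose, blue where it fell and grey where it did not pass, bar at the list median. The glucocorticoid metabolism and signalling lists reach furthest right, with Plin4 at 0.301 and Sgk1 at 0.284, and endothelial and red cell genes reach furthest left, with Kdr at -0.165 and Hbb-b2 at -0.137.

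The blocks gave different pictures for many genes, which limits what the pooled fit shows. Alone, the lower-numbered block called 2088 named genes (17.9%) higher and 2284 (19.6%) lower, and the higher-numbered block 798 (6.86%) and 497 (4.27%). Of the genes that passed in both, 292 had the same sign and 352 the opposite sign. The interaction of group and block passed for 3710 of 11639 named genes (31.9%) and 7552 of all probes (32.1%). Of the 47 glucocorticoid-responsive genes 34 had the same sign in both blocks, with medians of 0.0327 and 0.0253, and of all named genes 4939 of 11639 did. By contrast, none of 11 oxidative phosphorylation genes had the same sign in both blocks, with medians of 0.0461 and -0.0112, as for Cox7c (0.0758 and -0.00564) and Ndufa2 (0.0729 and -0.00646). The first principal component described above also ran in opposite directions in the 2 blocks.

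All 81 genes that were higher by at least 1.2-fold had the same sign in both blocks, and 56 passed in each block alone. Of the 52 lower genes 49 had the same sign and 20 passed in each. Both sets were chosen by the pooled fit over these same arrays, so their agreement between the blocks is partly built in. Sgk1 (0.318 and 0.249), Fkbp5 (0.191 and 0.165) and Pdk4 (0.239 and 0.164) differed between the blocks by less than the interaction test could tell (adjusted p = 0.179, 0.434 and 0.082), while Itgad did differ (0.534 and 0.207, adjusted p = 3.61e-10). The Tsc22d3 difference itself was 0.231 and 0.163 in the 2 blocks, and its part in these gaps was not tested.

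**Figure D5:**
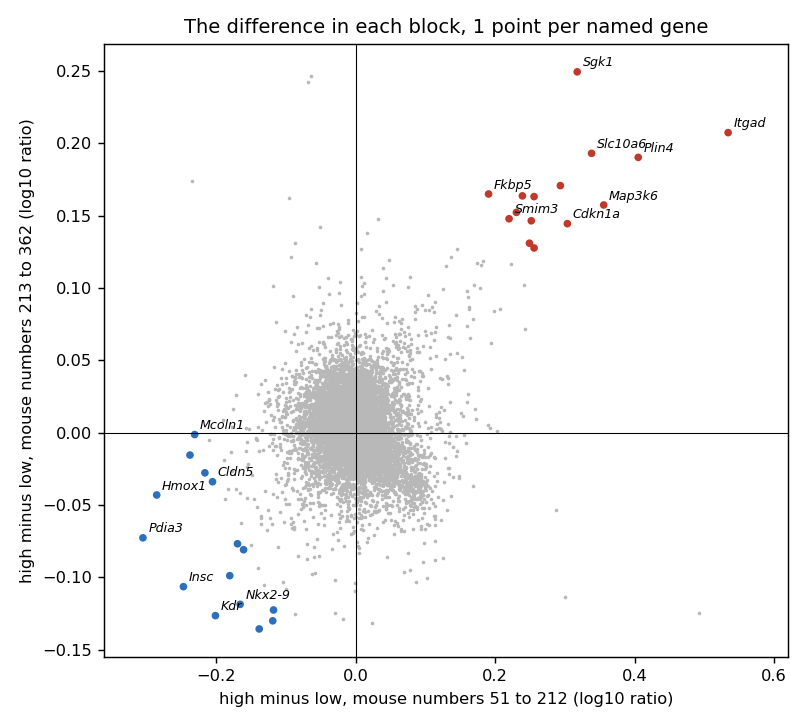
Difference in log10 ratio, high minus low Tsc22d3 brains, in mouse numbers 51 to 212 (horizontal) and 213 to 362 (vertical), 1 grey point per named gene, with the 15 genes furthest up in red and the 15 furthest down in blue. The red and blue genes share a sign in both blocks by the rule that chose them. Of all 11639 named genes 4939 have the same sign in both.

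The 148 middle brains were ranked by the same Tsc22d3 probe but stayed out of the contrast, and they gave slopes of the same sign for nearly all genes of 1.2-fold or more. There each probe was fitted as a slope on Tsc22d3 with block as a term, and the slope was multiplied by 0.198, the block-adjusted Tsc22d3 difference between high and low brains, to put it on the same scale. In these brains 249 named genes (2.14%) passed with a rising and 252 (2.17%) with a falling slope. Of the 81 genes higher by at least 1.2-fold, 80 had a rising slope and 56 passed. Of the 52 lower genes 50 had a falling slope and 32 passed. Over all 5877 genes with a positive difference, 69.6% had a rising slope, and over all 5762 with a negative one 65.9% a falling slope. In the lower-numbered block, middle brains with lower Tsc22d3 also came mostly from earlier mouse numbers, as the low brains did. The slopes thus share that order with the contrast, and its part in them was not tested. Smim3 had a scaled slope of 0.233 (adjusted p = 7.99e-11), Itgad 0.533 (adjusted p = 9.69e-08), Cdkn1a 0.335 (adjusted p = 4.34e-08), Pmaip1 0.368 (adjusted p = 6.99e-08), Sgk1 0.357 (adjusted p = 1.03e-05) and Fkbp5 0.274 (adjusted p = 1.23e-05). Downwards, Tek had -0.177 (adjusted p = 6.27e-06), Anpep -0.168 (adjusted p = 2.36e-05), Nkx2-9 -0.234 (adjusted p = 2.41e-05) and Kdr -0.212 (adjusted p = 0.00128). Lao1 (0.12, adjusted p = 0.261) was the gene among the 15 furthest up that did not pass there. Of the 47 glucocorticoid-responsive genes 13 passed with a rising and 2 with a falling slope.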

How the data were processed

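Brain RNA of 292 mice was measured on 2-colour arrays, per the labels with the mouse sample in Cy3 and the pool in Cy5 on every array. The deposited table holds log ratios made by the authors, whose direction and base are not stated, read here as log10 of mouse over pool. No source used here names the software or the normalization, and values stop at -2 and 2 (690 values). The ratios carry no depth, so the number of arrays limits the precision. Of 23574 probes, 25 with over 5% missing values were left out. Of all probes 13665 had 1 gene in the platform annotation (12662 matched to RefSeq symbols), 48 several and 9861 none, and these last were not named. Each gene was read from its probe of largest SD.

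The high and low 25% of brains by Tsc22d3 were compared with limma 3.58.1 in R 4.3.3 (lmFit and eBayes, block as a term, Benjamini-Hochberg adjustment over 23548 probes, Tsc22d3 left out). Further fits tested the interaction with block and the slope in the middle arrays. The method was tested on simulated data, with constant shifts added to some probes in randomly split middle arrays. A random split holds no order of mouse numbers, so that test says nothing about the part of this order. Genes named were the 15 largest differences each way past adjusted p under 0.05, 1.2-fold and with the same sign in each block, all genes of the 3 glucocorticoid and the receptor lists that the text needed, up to 3 genes of smallest adjusted p from each other list, and the 10 most like Tsc22d3; the Y-linked genes, Prl, Cox7c and Ndufa2 serve as checks. The groups and the 37 gene lists were chosen with earlier results of these data known. Alternatives changed the ranking, group size, covariates, scaling, array quality and the arrays used.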

Additional observations from a re-analysis of the deposited data

Results flagged for a closer look

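The difference between high and low Tsc22d3 brains was not of the same size in mouse numbers 213 to 362 as in mouse numbers 51 to 212 for 62 of the 112 genes named, by the interaction of group and block (limma, adjusted p under 0.05 over all probes). The values in brackets are the log10 difference in the higher-numbered block minus that in the lower-numbered block. Over all probes 32.1% passed this test, and the Tsc22d3 difference was 0.163 and 0.231 in these blocks.

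Among the genes furthest up the gap was negative, so that each difference was smaller in the higher-numbered block: Itgad (-0.327), Plin4 (-0.215), Slc10a6 (-0.145), Map3k6 (-0.198), Cebpd (-0.123), Cdkn1a (-0.159), Pmaip1 (-0.0927), Nfkbia (-0.105), Lao1 (-0.128), Trp53inp1 (-0.0783), Ch25h (-0.118) and Smim3 (-0.0722). The same held for other genes that rose, with the same sign in both blocks: Rasd1 (-0.171), Aff1 (-0.0636), Fmo2 (-0.079), Slc2a1 (-0.0617), Rhou (-0.0679), Sult1a1 (-0.0763), Ada (-0.0891), Adm (-0.0979), Sesn1 (-0.0476), Slc4a4 (-0.111), Nr1d2 (-0.101), Irs2 (-0.0471), Sesn2 (-0.0635), Rora (-0.0783) and Klf9 (-0.0497).

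Among genes with negative differences in both blocks, each was less far down in the higher-numbered block: Fkbp4 (0.0486), Pdgfrb (0.065), Ahsa1 (0.0679), Hsph1 (0.0572), Tbr1 (0.0559), Rtp4 (0.0767), Sox10 (0.0604), Arntl (0.0859), Oasl2 (0.138), Neurod6 (0.0412), Syt1 (0.132), Tek (0.0461), Mcoln1 (0.229), Pla2g4a (0.0796), Cldn5 (0.171), Cyp39a1 (0.188), Zc3h7b (0.222), Cxcl12 (0.0815), Kdr (0.0744), Hmox1 (0.242), Insc (0.14) and Pdia3 (0.232). Genes whose sign differed between the blocks were Cdkn1c (-0.134), Cox7c (-0.0814), Slc1a3 (-0.0852), Ndufa2 (-0.0794), Per1 (-0.0893), Dbp (-0.0514), Serpina6 (-0.0447), Bag1 (0.049), Stip1 (0.113), Nr3c1 (0.131) and Hspa8 (0.136). The genes Klf13 (0.148) and Tsc22d4 (0.0485) differed between the blocks without passing over both.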

How the results depend on the processing

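Of 112 named genes, 100 passed in the comparison as reported, and 31 of these kept direction and call under all 19 alternatives, 1 of which was chosen after seeing the data; of the 30 genes furthest up or down, 19 did. Ranking by a next Tsc22d3 probe was not run, since only 1 exists. The counts as reported were 1961 probes higher and 2438 lower, and 122 and 81 at 1.2-fold or more. The highest and lowest 10% of brains gave 763 and 928 (196 and 146 at 1.2-fold), from fewer arrays. The slope over all arrays gave 3330 higher and 3479 lower, and the slope in the middle arrays 429 higher and 421 lower (238 and 312 at 1.2-fold). Mouse numbers up to 212 alone gave 4441 and 4318 (629 and 575), their first spelling set 1286 and 1320 (421 and 315), and their second set 3554 and 3191 (878 and 866). Mouse numbers from 213 alone gave 1339 higher and 1107 lower (77 and 37 at 1.2-fold), more higher than lower, opposite to the counts as reported. With the first principal component of each block as a covariate, the alternative added later, 43 probes were lower at 1.2-fold, and 19 named genes lost their call, among them Nr3c1, Per1, Dbp, Stip1, Hsph1, Cdkn1c and Zc3h7b. The cause of these shifts was not tested.

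Signs turned mainly in mouse numbers from 213 alone, for Cdkn1c (-0.00664), Cox7c (-0.00564), Slc1a3 (-0.00764), Ndufa2 (-0.00646), Per1 (-0.0132), Dbp (-0.000913), Serpina6 (-0.00104), Bag1 (0.0049), Stip1 (0.0181), Nr3c1 (0.0186) and Hspa8 (0.00184), where 42 other named genes lost their call. Serpina6 also turned in the middle arrays (-0.0324), where 46 lost theirs. Klf13 turned in mouse numbers up to 212 (-0.0633) and in their second spelling set (-0.0925), as did Eif2s3y in that set (0.0424) and Nr4a2 in the first (0.0107). With the component of each block as a covariate Bag1 (0.0016) and Hspa8 (0.000771) turned. The cause was not tested. No paired analysis was possible because each mouse is a group of its own number and no number is shared between high and low brains.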
